A study of Drosophila melanogaster with 4 samples.

Results

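The chitin-binding genes obst-E, obst-F, obst-G and obst-H, the peritrophin genes Peritrophin-15a and Peritrophin-15b and the chitinase gene Cht5 were measured by 8 of the 14010 probe sets of a Drosophila melanogaster expression array. These 7 genes stand among 10844 genes with a probe set of their own, and all 7 lay above the intensity filter that left 6994 genes for testing. The genes were chosen by name from the obstructor, peritrophin and chitinase families after the intensities of these arrays and the difference between the groups were known. Their differences between groups are therefore a description, and no p-value is given for them.

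Chitin is a polymer of N-acetylglucosamine that stiffens the insect cuticle, lines the tracheal tubes during their growth and forms the peritrophic matrix, a sleeve that separates food from the midgut epithelium. Peritrophins and obstructor proteins are secreted and bind chitin through cysteine-rich chitin-binding domains. Chitinases cut the polymer when the matrix is remodelled or moulted. Peritrophins take their name from proteins extracted from the peritrophic matrix of blowfly larvae.

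Total RNA was measured on 1 array for each of 4 samples of Drosophila embryo cell culture. All 4 were negative fractions, the cells that remained once fluorescent neurons had been sorted away by flow cytometry. For Cha-negative, replicates a and b were taken from cultures aged 3 to 5 days with GFP in cholinergic neurons. For Gad1-negative, replicates a and b followed a sort for Gad1-expressing neurons. These carried the red fluorescent protein dsRed1, fused directly to a promoter of 2.1 kb from the glutamic acid decarboxylase 1 gene, and no culture age is given. Strain, genotype beyond the reporter and the origin of a and b are not given in the labels, so the spread between a and b may be technical. The design implies one question, how the cells left by the 2 sorts differ. The reporter goes with the group, and culture age is given for Cha-negative alone. The parts of sort, reporter, culture age and any batch that goes with the group cannot be told apart.

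Values are probe set intensities on a linear scale, which the authors' processing had brought to a common trimmed mean of 500.1 per array. The median probe set intensity ran from 181 in Gad1-negative b to 248 in Cha-negative a. Values of a pair of samples stand in the order a, b. Differences are log2 values, Gad1-negative minus Cha-negative, each with the moderated standard error (SE) from limma and n = 2 samples per group. Moderation draws each gene's variance towards that of genes of like intensity. The SE is thus smaller than a widely varying gene's own replicates would give, and larger for a gene with close replicates. Limma called 0 of the 6994 genes (0%) at an adjusted p under 0.05 (lowest value 0.783), and 345 genes had an unadjusted p under 0.05. A sign of RNA integrity, the ratio of 3' to 5' signal of the array's GAPDH controls, was at least 144 and 185 in the Cha-negative pair and 23.9 and 38.04 in the Gad1-negative pair. The eIF-4a controls were also higher in both Cha-negative samples, at no less than 321 and 935 beside 230 and 77.1. For actin the groups overlapped, at 59.4 and 124 beside 82.1 and 106, and they did so for 18S ribosomal RNA, at 59.2 and 17.3 beside 17.98 and 18.8. The part of RNA integrity in the differences below was not tested.

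Both peritrophin genes were highest in Cha-negative b and lowest in Gad1-negative a. Peritrophin-15a read 6422.9 and 14436.5 in the Cha-negative pair and 2071.6 and 8435.3 in the Gad1-negative pair. The groups overlapped, since Gad1-negative b lay above Cha-negative a. The difference was -1.20 ± 0.82 (SE). Peritrophin-15b read 1625.9 and 2939.9 against 366.5 and 1540. Here the groups were separate by a narrow gap, the lowest Cha-negative value being 1.06-fold above the highest Gad1-negative value. The difference was -1.54 ± 0.76 (SE), a level 2.91-fold higher in Cha-negative. Both genes varied strongly between replicates, and in the same direction. Peritrophin-15a was 2.25-fold higher in b than in a among the Cha-negative samples and 4.07-fold higher among the Gad1-negative samples. The corresponding folds of Peritrophin-15b were 1.81 and 4.20. The 2 genes are immediate neighbours on chromosome arm 2L in the RefSeq gene order, with 0 genes between them. Whether their probe sets share sequence was not tested. As these are bulk samples, fewer cells of a type and less RNA per cell cannot be told apart, here and for every gene that follows.

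Among the obstructor genes, obst-F, obst-G and obst-H read lower in both Gad1-negative samples than in either Cha-negative sample. The obst-H gene read 780.1 and 2176.2 in the Cha-negative pair against 109.6 and 184.2 in the Gad1-negative pair. The groups were 4.24-fold apart at their nearest samples, and the difference was -3.20 ± 0.68 (SE), 9.17-fold higher in Cha-negative. Of the 6994 genes, 8 had a lower difference than obst-H. The obst-F gene had the widest spread of the 7 genes, at 1411.8 and 7046.5 against 137.4 and 1332.4. Its difference was -2.88 ± 1.14 (SE), but Cha-negative a and Gad1-negative b were only 1.06-fold apart. Replicate b was 4.99-fold above a in Cha-negative and 9.70-fold above a in Gad1-negative, beside a 7.37-fold difference between the groups. The obst-G gene had close Cha-negative replicates, at 562.2 and 614.8, and read 263 and 122.9 in the Gad1-negative pair. Its difference was -1.71 ± 0.63 (SE), and its nearest samples were 2.14-fold apart. Unlike the peritrophins, obst-G was lower in b than in a among the Gad1-negative samples, by 2.14-fold.

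The obst-E gene, which is needed for the larval cuticle to shape the body, did not follow the groups. Its brighter probe set read 2300.5 and 784.9 in the Cha-negative pair against 894.5 and 5542.5 in the Gad1-negative pair. Its other probe set read 1086.2 and 411.7 against 540.2 and 1135.9. Both probe sets placed Cha-negative a and Gad1-negative b above the other two samples, so the groups overlapped in each. The difference was 0.73 ± 0.93 (SE) for the brighter probe set and 0.23 for the other. Its sign turned with 1 sample left out, to -0.05 without Cha-negative b and to -0.59 without Gad1-negative b.

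Cht5, a secreted chitinase known from other insects for breaking down old cuticle at the moult, stood the other way. Its probe set read 292.1 and 411.2 in the Cha-negative pair against 1520.3 and 1280.7 in the Gad1-negative pair. Both Gad1-negative samples lay above both Cha-negative samples, with the nearest 3.11-fold apart, and replicates differed by 1.41-fold and 1.19-fold. The difference was 2.01 ± 0.53 (SE), 4.03-fold higher in Gad1-negative. Of the 6994 genes, 85 had a higher difference.

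**Figure D1:**
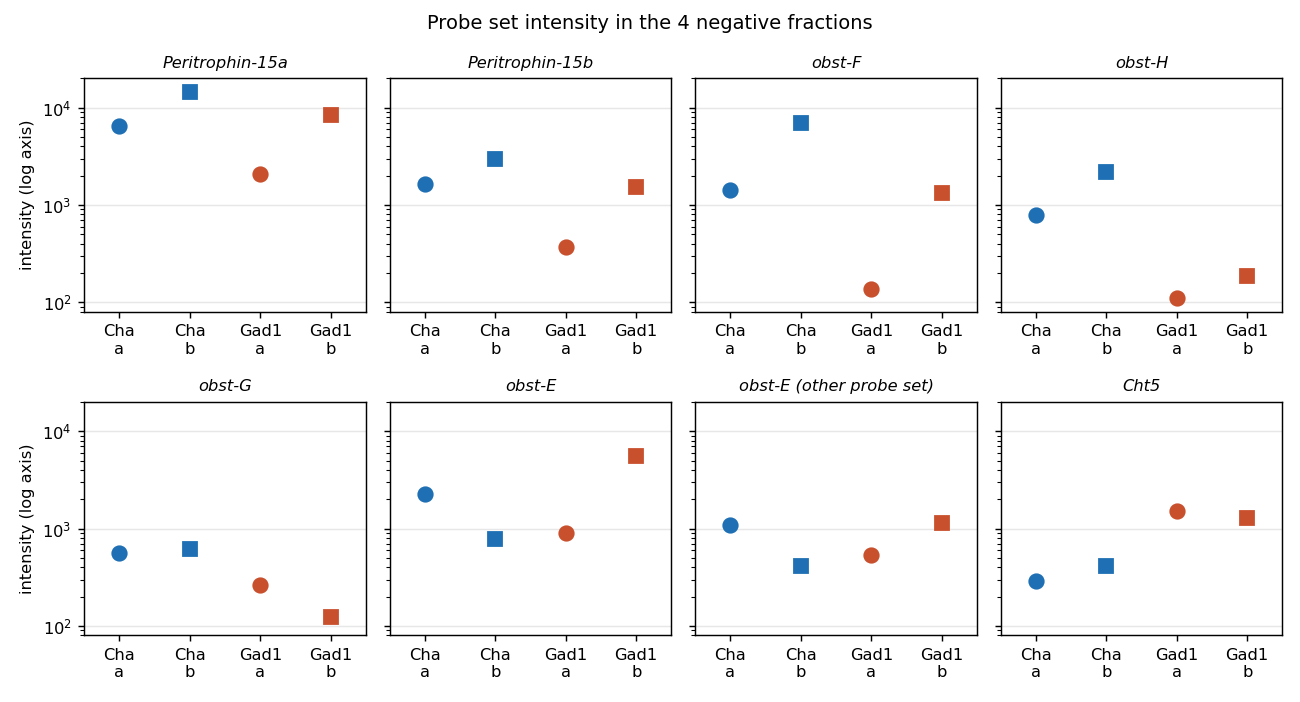
Intensity (vertical axis, log scale) of the 8 probe sets in Cha-negative a and b (blue) and Gad1-negative a and b (red), each point 1 array, circles for a and squares for b. The obst-H points of Gad1-negative lie at 109.6 and 184.2, under both Cha-negative points, those of Cht5 lie above, and those of obst-E overlap in both probe sets.

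Over the 7 genes, 5 had a negative and 2 a positive difference, with a median of -1.54 against -0.04 over all genes tested. Of all genes tested 52.3% had a negative difference. The groups did not overlap in 4 genes on the lower side, obst-F, obst-G, obst-H and Peritrophin-15b, and in 1 on the higher side, Cht5. Among all genes tested 20.1% were lower and 14.7% higher in Gad1-negative with no overlap. Nothing is read from the members' counts, since the genes were chosen with this contrast in view.

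When samples with the same letter were set against each other, 5 of the 7 genes were lower in Gad1-negative within both letters and Cht5 was higher within both. Among all genes tested 31.9% were lower and 24.5% higher within both letters. Peritrophin-15a, whose groups overlapped, differed by -1.63 between the a samples and by -0.78 between the b samples. Peritrophin-15b differed by -2.15 and -0.93, obst-F by -3.36 and -2.40, and obst-H by -2.83 and -3.56. The obst-E gene went both ways, at -1.36 between the a samples and 2.82 between the b samples. Replicate b exceeded a in both groups for 4 of the 7 genes, the peritrophins, obst-F and obst-H, against 27.2% of all genes tested. For Peritrophin-15a and obst-F the step was over 2-fold in both groups, which held for 4.92% of all genes. The labels do not say that the letter marks a shared culture or day.

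Single samples set the size of several differences. Without Gad1-negative a, the sample with the lowest peritrophin values, Peritrophin-15a differed by -0.19 and Peritrophin-15b by -0.51. Without Gad1-negative b they differed by -2.22 and -2.58. Both differences kept their sign, and each moved by over 1.5 times with either of these samples left out. Peritrophin-15a also moved to -0.62 without Cha-negative b and to -1.79 without Cha-negative a. The obst-F difference was -1.24 without Gad1-negative a, -4.52 without Gad1-negative b, -1.72 without Cha-negative b and -4.04 without Cha-negative a. The obst-H difference ran from -2.46 without Cha-negative b to -3.94 without Cha-negative a. For obst-G it ran from -1.16 without Gad1-negative b to -2.26 without Gad1-negative a, and for Cht5 from 1.76 to 2.26.

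**Figure D2:**
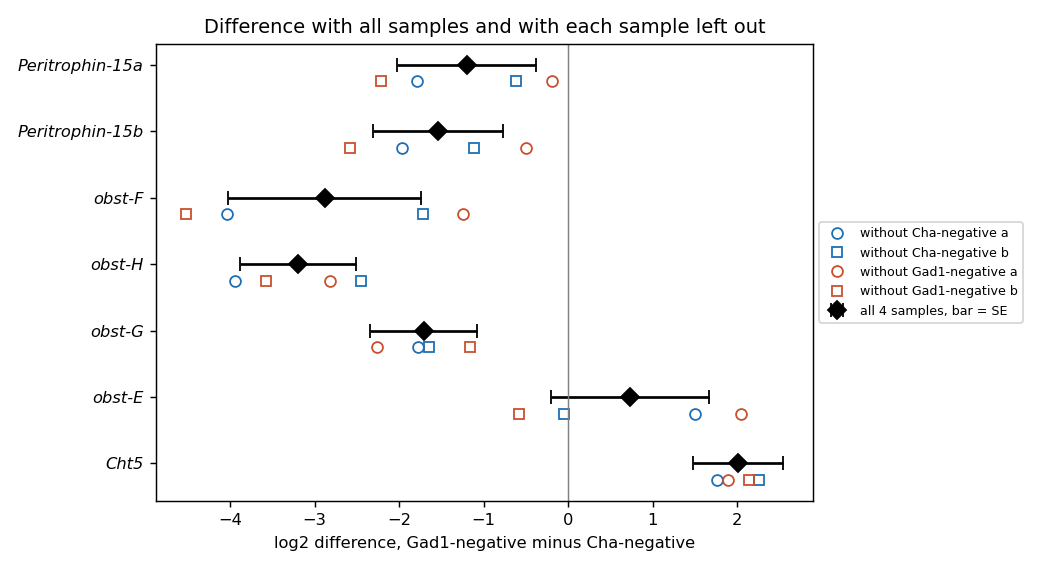
Log2 difference between Gad1-negative and Cha-negative (horizontal axis) for the 7 genes (vertical axis), with all 4 samples (black diamonds, bars are the moderated SE of the fit) and with each sample left out (open symbols). Cht5 runs from 1.76 to 2.26, obst-F runs from -4.52 to -1.24, and obst-E lies on both sides of 0.

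Profiles over the 4 samples were compared by the Euclidean distance between mean-centred log2 values, a description over 4 points that share arrays and scaling. The peritrophins lay 0.41 apart, and Peritrophin-15b was number 11 of 6993 genes in closeness to Peritrophin-15a. The genes nearest to Peritrophin-15a were Qsox2 (0.17), fsd (0.29) and Rip11 (0.34), and those nearest to Peritrophin-15b were CG7715 (0.18), sktl (0.23) and CG8861 (0.33). Genes of other families thus had the peritrophin profile too, with 17 genes within 0.5 of Peritrophin-15a and 13 within 0.5 of Peritrophin-15b.

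The obst-F and obst-H profiles had few close companions, with 0 genes within 0.5 of either. The values were centred but not scaled. Genes that vary as much as these have few neighbours within a fixed distance, so nothing is read from this count. Nearest to obst-F were CG5506 (0.60), the neuropeptide gene Crz (0.88) and CG43896 (0.90). CG5506 read 4004.7 and 27075.4 in the Cha-negative pair against 307.6 and 3172.9 in the Gad1-negative pair, the same order of samples as obst-F. Nearest to obst-H were mex1, a gene named for its expression in the midgut (0.76), CG32053 (0.82) and CG5011 (0.92). The mex1 probe set read 1890.6 and 6087.6 against 536.8 and 638.1. The distance between obst-F and obst-H was 1.91, and obst-H was number 28 of 6993 in closeness to obst-F. Peritrophin-15b was as near to obst-F, at number 27, and obst-F was number 107 in closeness to obst-H.

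The obst-G profile had the most genes within 0.5, a count from which again nothing is read. Its nearest member was obst-H, 2.20 away and number 4013 of 6993 in closeness to obst-G. In closeness to obst-H, obst-G was number 180. The profiles of Cht5 and obst-E lay apart from the other members. For obst-G the nearest genes were CG7164 (0.17), CG15210 (0.23) and the cation channel gene TrpA1 (0.24), with 33 genes within 0.5. For Cht5 they were CG30291 (0.23), raskol (0.28) and Gorab (0.31), with 10 within 0.5. For obst-E they were CG2865 (0.36), atilla (0.39) and Cyp6d5 (0.46), with 3 within 0.5. The longest distance among the 7 genes was that of 5.64 between Cht5 and obst-F.

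The other obstructor genes of the array did not all share one profile. The obst-A gene, which organises chitin in larval cuticle and trachea, read 1344.2 and 335.5 in the Cha-negative pair against 934 and 2092.2 in the Gad1-negative pair. Like obst-E it was highest in Gad1-negative b and lowest in Cha-negative b, and the 2 profiles lay 1.13 apart. Its difference was 1.06 ± 0.78 (SE). A second obst-A probe set read 982.3 and 559.9 against 615.3 and 2056.3, with the same order of samples and a smaller difference of 0.60. Gasp, also known as obst-C and a protein of the tracheal lumen, read 542.1 and 782.5 against 1578 and 1271.9. Both its Gad1-negative samples were higher, the order of samples was that of Cht5, and the distance to Cht5 was 0.89. Its difference was 1.12 ± 0.53 (SE).

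The remaining family members were chosen for description after their values were seen. The obst-J gene, with 6 genes between it and obst-F on arm 3L, read 1120.7 and 62.9 against 32.5 and 823.5. It was high in Cha-negative a and Gad1-negative b, under the floor of 44.9 in Gad1-negative a, and 5.22 away from obst-F in profile. Peritrophin-A, also known as obst-D and next to obst-A on the X chromosome, read 182.3 and 149.3 against 175.1 and 240.2. The obst-B gene was too dim to be tested, at 125.1 and 70.8 against 91.6 and 71.9. Family membership and arm did not go with a common order of samples over all these genes. On arm 3L obst-F and obst-H had the same order of samples, which Peritrophin-15b on arm 2L shared. Also on arm 3L, obst-G differed from it within the Gad1-negative pair alone, and obst-J was highest in Cha-negative a.

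With the further obstructor genes just described, 45 genes other than the 7 members, of chitin binding, synthesis, deacetylation and breakdown, had a probe set of their own and 32 were tested. Limma called 0 of the 32 after adjustment over all genes. At an unadjusted p under 0.05 there were 2 lower, Muc26B and Idgf5, and 0 higher in Gad1-negative, where 2.85% of all genes tested (199) were lower and 2.09% (146) higher. Median centring changed that split over all genes to 117 lower and 219 higher. It also moved the median difference of all genes tested to 0.20, and quantile normalization moved it to 0.04. List medians given below after these normalizations are to be read beside those values. Of the 32 genes, a negative difference was found in 19 and a positive one in 13, with a median of -0.38 against -0.04 over all genes. That median turned to 0.42 without Gad1-negative a and to 0.11 without Cha-negative b.

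The obstructor and mucin-like list had 11 tested genes, 7 with a negative difference and a median of -0.51. Muc26B, a mucin-like gene, read 6988.1 and 8952.3 in the Cha-negative pair against 416.2 and 2393.9 in the Gad1-negative pair, a difference of -2.99 ± 0.83 (SE). Its groups did not overlap, and like the peritrophins it was highest in Cha-negative b and lowest in Gad1-negative a. Muc55B read 3548.9 and 872 against 957 and 215.9, with overlapping groups and a difference of -1.95 ± 0.91 (SE). The mucin-like genes Mur2B, Mur82C and Muc68D lay under the floor in all 4 samples.

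The other chitinases and the imaginal disc growth factors, chitinase-like proteins without known chitin-cutting activity, did not follow Cht5. The list's 11 tested genes had a median of -0.01, with 5 positive and 6 negative differences. The median turned to 0.23 after median centring and 0.05 after quantile normalization, beside 0.20 and 0.04 over all genes tested. Idgf4 read 2848.1 and 7458 against 3217.1 and 8889.6, a difference of 0.21 ± 0.75 (SE), and Idgf3 differed by 0.21 ± 0.64. Idgf2 differed by 0.72 ± 0.61 and Idgf6 by 0.81 ± 0.66. The chitinases themselves were named after their values were seen. Cht2 differed by 0.58 ± 0.65, Cht6 by -0.79 ± 1.10 and Cht10 by -0.51 ± 0.94, with overlapping groups. Cht9 (-0.41 ± 0.52) and Cht11 (-0.72 ± 0.70) were lower in both Gad1-negative samples. Idgf5, also named after its values were seen, was the one gene of the list with an unadjusted p under 0.05, at 1225.5 and 476 against 64.5 and 341.8 (-2.36 ± 0.90).

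Genes that make and modify chitin had a median of -0.23 over 10 tested genes, 6 of them negative. After median centring that median was 0.02, beside 0.20 over all genes tested. The gene mmy, whose enzyme makes the activated sugar used by chitin synthases, read 2838.6 and 5422.5 against 2324.8 and 2702.7 (-0.65 ± 0.58). The groups of mmy did not overlap, though Cha-negative a lay near Gad1-negative b. The tracheal chitin deacetylase gene verm read 1575.8 and 2845.2 against 2590.4 and 6829.2 (0.99 ± 0.67). Gfat2, of the hexosamine pathway, differed by 0.08 ± 0.58 and the deacetylase gene Cda4 by 0.13 ± 0.53. The chitin synthase genes, named after their values were seen, differed by -0.44 ± 1.03 for kkv, the synthase of epidermis and trachea, and by -0.82 ± 0.56 for Chs2, that of the midgut.

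**Figure D3:**
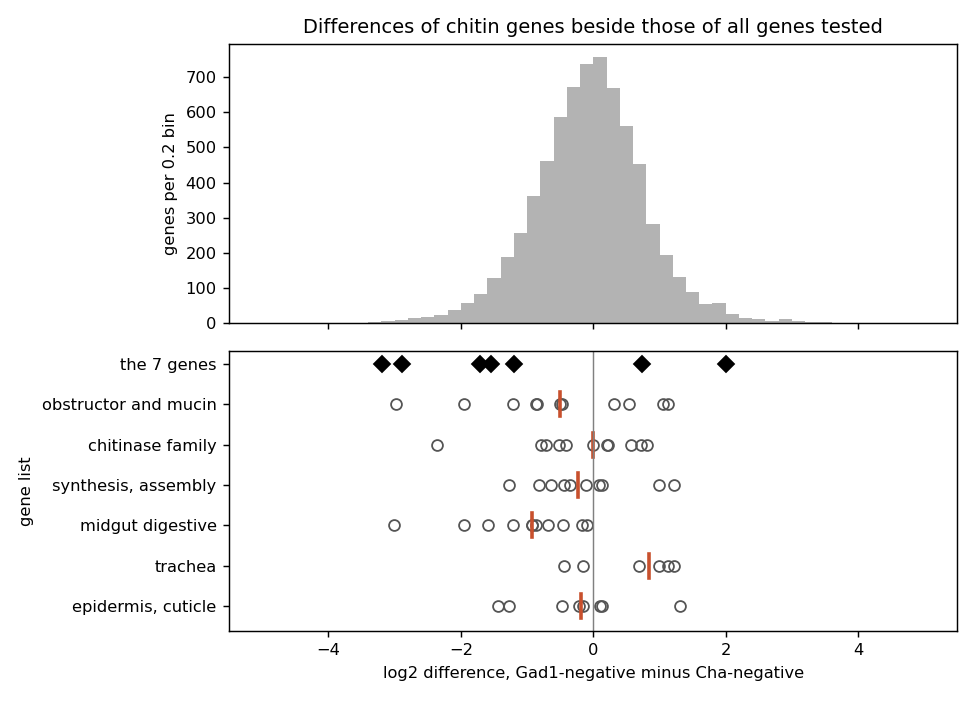
Upper panel, number of genes by log2 difference between Gad1-negative and Cha-negative for the 6994 genes tested. Lower panel, the same difference for the 7 genes (diamonds) and the tested genes of 6 lists (circles, red bar at the list median). The 7 genes lie between -3.20 and 2.01, and all 11 tested midgut digestive genes lie below 0 (9 after median centring).

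Markers of the tissues that make chitin matrices lay along some of these differences. Of the 23 midgut digestive genes on the array 11 were tested, and their median difference was -0.92. All 11 were negative, against 10 after quantile normalization and 9 after median centring. At an unadjusted limma p under 0.05 there were 2 lower, LysS and Jon65Aiv, and 0 passed adjustment. Over all genes tested, without further normalization, 52.3% were negative and 2.85% were lower at this unadjusted threshold. The summed intensity of the 23 genes was 16220 and 22705 in the Cha-negative pair against 10514 and 4656 in the Gad1-negative pair, so the list was lower in both Gad1-negative samples, as were obst-F, obst-G, obst-H and Peritrophin-15b. LysS, a digestive lysozyme, read 4935.7 and 12165.9 against 1898.6 and 490.8, and LysB, another, 5037 and 4014.2 against 4150.2 and 1454.7. Together LysS and LysB gave the greater part of both Cha-negative sums. Whether the LysB probe set also reads other lysozyme genes was not tested. The serine protease genes Jon25Bii and Jon74E differed by -0.69 ± 0.55 and -0.17 ± 0.59. GATAe, a transcription factor of the midgut named after its values were seen, was too dim to be tested, at 83.8 and 255.6 against 25.6 and 59.9. Of the other untested genes, thetaTry, Mal-A6 and mag, also named after their values were seen, had positive differences of 1.08, 0.65 and 0.70. The median over all 23 genes was -0.69. Jon25Biii lay under the floor in all samples. The midgut list was lowest in Gad1-negative b, where both peritrophins, obst-F and obst-H were higher than in Gad1-negative a. Like the list, obst-G was lower in Gad1-negative b than in Gad1-negative a. The part of the midgut list in the differences was not tested.

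The tracheal list, of which Gasp is a member, had a higher sum in both Gad1-negative samples, as Cht5 was higher in both. Its 8 genes summed to 4962 and 5910 in the Cha-negative pair against 7956 and 12621 in the Gad1-negative pair. The sum was highest in Gad1-negative b, where verm alone read 6829.2, while Cht5 was highest in Gad1-negative a. Of 6 tested genes 4 had a positive difference, the median was 0.84, and 0 passed at an unadjusted p under 0.05. However, 4 of the 8 genes are also in the chitin lists (Gasp, verm, serp and kkv), and the tracheal receptor gene btl, named after its values were seen, read 52.9 and 48 against 17.2 and 18.2, near or under the floor. The tracheal matrix gene pio read 2286.2 and 1189.2 against 3301.7 and 2158.4, and serp 122.7 and 300.1 against 113.8 and 1757.4, both with overlapping groups.

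The epidermal and cuticle list showed no such step. Its 12 genes summed to 12324 and 11172 in the Cha-negative pair against 11332 and 9669 in the Gad1-negative pair, and the groups overlapped. After median centring both Gad1-negative sums were slightly higher, at 11442 and 11492 against 10719 and 10969. Its 8 tested genes had a median of -0.19, which turned to 0.06 after median centring and 0.01 after quantile normalization. The median of all genes tested was then 0.20 and 0.04. Ddc, an enzyme that supplies catecholamines for cuticle hardening, read 4099.1 and 5754.9 against 5530.1 and 4958.4. The hydroxylase gene ple, of the same pathway, differed by 1.31 ± 0.76, and the cuticle genes Cpr64Ad and TwdlM by -0.47 ± 0.54 and -1.28 ± 0.73. Cpr47Ea lay under the floor in all samples. Of the hindgut and foregut list 1 of 6 genes was tested, bowl at -1.24 ± 0.73, and drm lay under the floor in all samples. The list summed to 1347 and 1145 against 1084 and 685, lower in both Gad1-negative samples. Of these sums bowl alone gave 891.7 and 750 against 694.8 and 173. The untested tll went the other way, at 22.3 and 37.2, under the floor, against 174.5 and 96.5, a difference of 1.53. Also untested, byn differed by 0.13 and otp by -0.41, and the median over all 6 genes was -0.09.

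Genes of other cell types read above the floor in all 4 fractions, among them 5 or 6 of the 7 neuron genes in each. The neuron genes summed to 2189 and 1785 in the Cha-negative pair against 825 and 2517 in the Gad1-negative pair, with overlap and a median of -0.45 over 4 tested genes. The 6 muscle genes summed to 5364 and 3488 against 8822 and 13117, higher in both Gad1-negative samples, as Cht5 was, and their median was 0.78. The 5 neuroblast genes summed to 2409 and 2600 against 7300 and 3078, also higher in both, and their median was 0.85. The haemocyte, glia and fat body lists had medians of 0.19, -0.14 and -0.17, with overlapping sums. Median centring turned the glia and fat body medians to 0.11 and 0.08, beside 0.20 over all genes tested. Quantile normalization turned that of glia to 0.07, beside 0.04. Median centring left the haemocyte sums higher in both Gad1-negative samples. The part of any of these cell types in the chitin gene values was not tested.

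**Figure D4:**
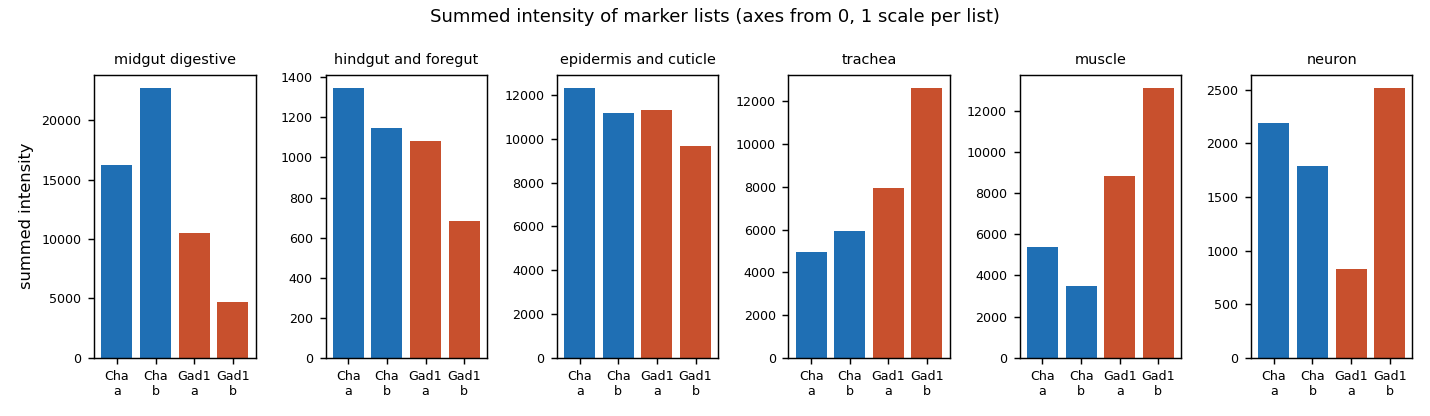
Summed intensity (vertical axis, linear from 0, a separate scale for each list) of the genes of 6 marker lists in Cha-negative a and b (blue) and Gad1-negative a and b (red), each bar 1 array. The midgut list reads 22705 in Cha-negative b and 4656 in Gad1-negative b, and the tracheal list is highest in Gad1-negative b at 12621.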

How the data were processed

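The authors deposited 1 intensity per probe set and array, on a linear scale, in 4 columns matched to samples by identifier. The software behind them is not given in the sources used here. The 2%-trimmed means of the columns were equal, at 500.1, so no further normalization was applied. The arrays' number limits the precision. Of 14010 probe sets, 44 were controls, 12443 named 1 gene, 327 several and 1196 none in the platform annotation, and its symbols were those of the RefSeq table wherever the gene identifiers matched. For the 1209 genes with several probe sets the one with the highest mean was used. A floor of 44.9, the 20th percentile over all arrays, was applied before log2. Genes whose mean reached log2 7.05, the 40th percentile of probe set means, were tested with limma 3.58.1 in R 4.3.3 (lmFit, eBayes with trend, two-sided, Benjamini-Hochberg adjustment over 6994 genes), and the code was tested on simulated data. Tables and figures were made in Python 3.11.15 with pandas 2.3.3, numpy 2.4.6 and matplotlib 3.10.9.

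The members and the gene lists were chosen with earlier results of these data known. Genes were named by rule. These were all 7 members, the 3 nearest profiles of each, and up to 4 genes with the highest mean from each list. The lists were 3 of chitin genes and those of midgut, epidermal, tracheal, hindgut and foregut, muscle, haemocyte, fat body, neuron, glia and neuroblast markers. For the lists after hindgut and foregut, summaries alone are printed. Others are marked as named after their values were seen. Alternatives were 2 other normalizations, 2 other floors, an offset of 50, 2 other filters, the mean of probe sets, eBayes without trend, the replicate letter as a block and leaving out each sample. The positive fractions were not used here. Coordinates are not given, as the sources name no build for the probes.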

Additional observations from a re-analysis of the deposited data

How the results depend on the processing

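Under each of the 14 alternatives limma called 0 genes after adjustment. The count at an unadjusted p under 0.05, 345 as reported, was 213 with the filter at the 60th percentile, which tests fewer genes, 718 with no intensity filter, which tests more, and 602 with the replicate block. With 1 sample left out the lowest count was 257 (Cha-negative a left out) and the highest 521 (Gad1-negative a left out); the sample left alone in its group is then assumed to vary like the other group. The letter pairs the samples only by name: the differences between a and b correlated between the groups with r = 0.25 over genes. The block leaves every member's difference as it is. The median of the related chitin genes, -0.38 as reported, was 0.42 without Gad1-negative a, 0.11 without Cha-negative b and lowest at -0.53, with Cha-negative a left out; the cause was not tested. The obst-E difference, 0.73 as reported, was -0.05 without Cha-negative b, -0.59 without Gad1-negative b and at most 2.04, without Gad1-negative a. The other 6 members kept their sign under all 13 alternatives that could change them. Median centring moved the median of all genes from -0.04 to 0.20; relative to that median obst-H was at -3.15 and -3.16 and Cht5 at 2.05 in both. With 1 array per sample and 2 samples per group, the median SE of a difference was 0.65.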
